A study of Mus musculus with 6 samples.

Results

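The genes described here carry names of motile cilia genes, together with Ovgp1, an oviduct secretory gene read beside them. Not all are particular to motile cilia: Cfap20, Cfap418 and Ccno, for example, are known from other cilia or cells. They were picked by name from a mouse ovary RNA-seq table. Names of the families Dnah (axonemal dynein heavy chains), Dnai (dynein intermediate chains), Rsph (radial spoke heads) and Cfap (cilia and flagella associated proteins) were taken, with Foxj1, Ovgp1, Tppp3, Ccdc39, Ccdc40, Mcidas, Ccno, Tekt1 and Spag6l. Of the 56980 genes listed, 74 names matched and 72 had at least 10 counts summed over the 6 libraries. The other 2 were Mcidas, with 9 counts in all, and Rsph6a, with 0. Among the 72 were 15 dynein heavy chains and the antisense RNA Dnah2os, whose name the pattern also takes, 4 intermediate chains, 7 radial spoke genes, 37 Cfap genes, 2 regulators, 1 secretory gene and 5 other axonemal genes. All 6 libraries came from whole ovaries of ICR mice, an outbred stock. The 3 control libraries (replicates 2, 3 and 4) came from mice injected with the solvent, polyethylene glycol in saline. The 3 FNZ libraries (replicates 2, 3 and 5) came from mice given the compound in that solvent, once daily into the peritoneum at 30 mg/kg over 7 days. The labels give the compound only by these letters, and the study's title concerns blockade of T-type calcium channels. The labels speak of 3 ovaries in each group and not of separate mice, so the p-values measure only the spread between these samples, which may be technical. No age of the animals is stated in the labels.

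A motile cilium beats because dynein motors slide the microtubules of its axoneme past each other. Outer and inner dynein arms are built on heavy chains, the ATP-driven motors, and on intermediate chains that hold the arms together, while radial spokes and the central pair time the beat. The transcription factor FOXJ1 switches on most genes of the axoneme, RFX factors bind the X-box in many of their promoters, and MCIDAS and cyclin O drive the multiplication of basal bodies. In the female tract, multiciliated cells line the oviduct, where their beat helps to carry the egg. OVGP1, the oviduct glycoprotein, is made by the non-ciliated secretory cells beside them. The ovary's own granulosa, theca and stromal cells carry at most a primary cilium, which has no dynein arms.

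Promoters of 5 members are shown because the X-box is the sequence feature that motile cilia promoters are known to share. RefSeq promoters, 250 bases before to 50 bases after the gene start in the build GRCm38.p6, were matched to 56 of the 72 genes, which gave 61 promoters. The GTTGCC arm of the X-box lay on either strand in 21 of the 61 (34.4%), against 12.5% of all 32851 promoters in the table. The whole X-box, searched as GTTNCC and GGNAAC with 2 free bases between and able to contain the arm, lay in 1 member promoter (1.64%), that of Cfap298, against 0.451% of all. The forkhead motif TGTTTAC lay in 3 (4.92%), against 3.65%. The promoters below were picked after the matches were seen, and capitals mark the matches on either strand. They are those of Tekt1 (chr11:72361833-72362132, minus strand, 1 of 2 listed), Spag6l (chr16:16829314-16829613, minus), Cfap44 (chr16:44394549-44394848, plus), Cfap298 (chr16:90934800-90935099, minus) and Ovgp1 (chr3:105973552-105973851, plus).
Tekt1: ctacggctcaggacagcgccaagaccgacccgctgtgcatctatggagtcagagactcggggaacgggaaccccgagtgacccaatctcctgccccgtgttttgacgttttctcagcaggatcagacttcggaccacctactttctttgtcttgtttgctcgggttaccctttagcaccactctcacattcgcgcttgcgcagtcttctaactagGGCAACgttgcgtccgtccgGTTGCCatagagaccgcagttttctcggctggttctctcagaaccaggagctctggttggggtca
Spag6l: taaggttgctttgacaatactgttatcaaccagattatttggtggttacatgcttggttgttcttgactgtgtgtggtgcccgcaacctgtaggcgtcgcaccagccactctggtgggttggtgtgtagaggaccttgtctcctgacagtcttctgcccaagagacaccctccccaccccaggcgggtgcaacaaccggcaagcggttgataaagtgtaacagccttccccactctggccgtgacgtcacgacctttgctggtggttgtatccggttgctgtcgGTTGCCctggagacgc
Cfap44: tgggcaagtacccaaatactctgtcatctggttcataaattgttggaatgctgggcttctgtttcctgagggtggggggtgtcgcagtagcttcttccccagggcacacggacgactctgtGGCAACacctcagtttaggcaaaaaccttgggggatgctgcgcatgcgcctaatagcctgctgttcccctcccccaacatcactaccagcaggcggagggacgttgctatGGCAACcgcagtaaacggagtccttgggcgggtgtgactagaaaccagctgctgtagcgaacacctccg
Cfap298: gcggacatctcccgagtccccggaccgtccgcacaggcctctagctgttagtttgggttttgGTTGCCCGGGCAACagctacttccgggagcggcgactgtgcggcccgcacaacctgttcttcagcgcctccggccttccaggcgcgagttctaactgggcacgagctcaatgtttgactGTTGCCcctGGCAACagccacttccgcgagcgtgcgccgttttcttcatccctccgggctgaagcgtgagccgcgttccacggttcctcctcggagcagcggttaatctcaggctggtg
Ovgp1: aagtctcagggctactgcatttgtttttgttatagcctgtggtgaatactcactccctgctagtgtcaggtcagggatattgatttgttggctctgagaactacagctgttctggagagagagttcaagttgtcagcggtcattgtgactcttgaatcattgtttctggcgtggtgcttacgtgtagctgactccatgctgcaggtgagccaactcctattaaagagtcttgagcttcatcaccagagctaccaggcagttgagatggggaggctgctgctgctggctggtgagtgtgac
In Tekt1 the arms lie at -35 to -30 and -15 to -10, counted from the gene start, and in Spag6l the arm lies at 35 to 40. In Cfap298 the whole X-box spans -188 to -175, and a further pair of facing arms lies at -69 to -64 and -60 to -55. The Ovgp1 window holds none of these letters. A match describes the sequence and is not a bound site.

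Total expected counts per library ran from 19333493 to 23406628, and the 72 genes took 0.0427% to 0.143% of them. Levels are given below as CPM (counts relative to the TMM-scaled library size) in the order control replicates 2, 3 and 4, then FNZ replicates 2, 3 and 5. In bulk RNA a lower level can come from fewer cells of a type or from less RNA in each, and these cannot be told apart.

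Summed over the 72 genes, the level was 470, 423 and 1402 CPM in the controls and 666, 443 and 490.5 CPM with FNZ. Control replicate 4 stood highest, FNZ replicate 2 came next, and the other 4 libraries lay close together, so the groups overlapped. Without Ovgp1 the sum was 463, 421 and 848 CPM in the controls and 653, 438 and 488 CPM with FNZ. The group means with SD over 3 libraries were 577 ± 235 CPM in controls and 526 ± 113 CPM with FNZ. Control replicate 4 was the highest library for 55 of the 72 genes (76.4%). Of the 59 genes that passed the expression filter and were tested it was highest for 42 (71.2%), against 20.7% of all 17735 genes tested. Control replicate 4 and FNZ replicate 2 were together the 2 highest libraries for 39 of those 59 (66.1%), against 6.21% of all genes tested.

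**Figure D1:**
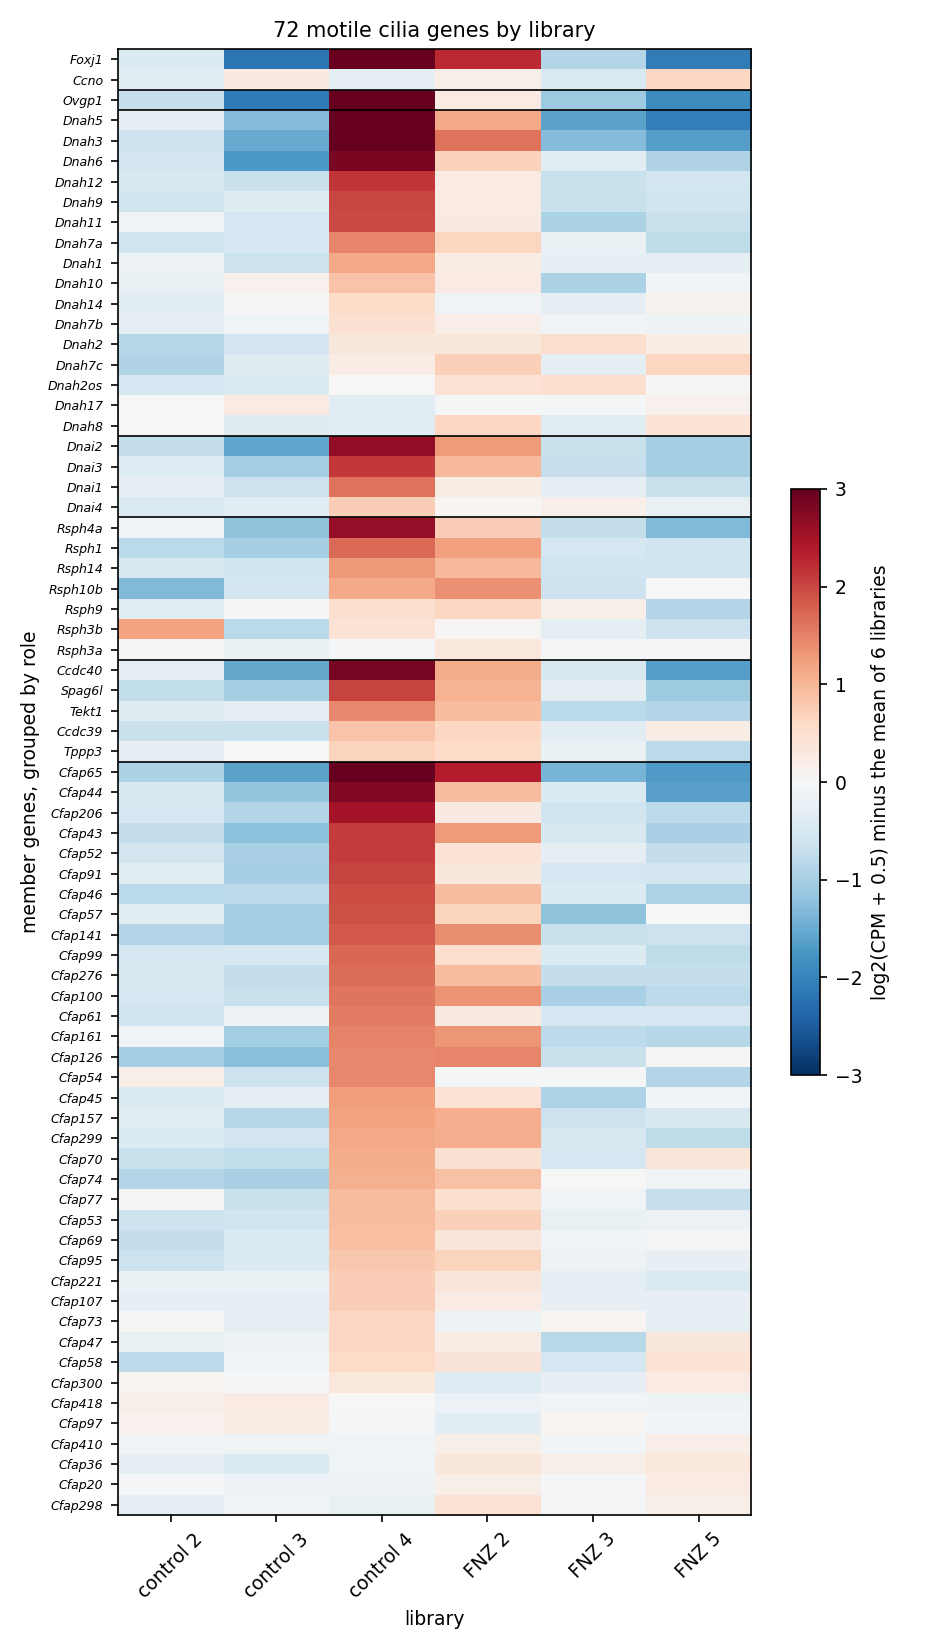
Each row is 1 of the 72 genes, ordered by role between the black lines, and each column is a library. Colour gives log2(CPM + 0.5) minus the gene's mean over the 6 libraries, cut off at 3 in either direction. The control 4 column is red in most rows, 55 of 72 genes being highest there, and the FNZ 2 column follows it.

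No member passed the test of FNZ against control. With edgeR's quasi-likelihood test and Benjamini-Hochberg adjustment over all genes, 0 of 59 members were called in either direction at an adjusted p under 0.05, and 0 of all 17735 genes (0%) were called. The smallest adjusted p of a member was 0.131, for Cfap36, with all 3 FNZ libraries above all 3 controls. At an unadjusted p under 0.05, 4 members were higher and 1 lower with FNZ, against 12% of all genes tested higher and 11.2% lower. The log2 fold changes of the members ran from -4.75 to 0.97, 18 positive and 41 negative, with a median of -0.29 against 0.01 over all genes tested. DESeq2 on the same counts called 1 member higher, Cfap36, and 0 lower, against 4.27% of 15302 genes higher and 5.29% lower. In the authors' deposited table Cfap36 was also the single member with an adjusted p under 0.05, where 1.16% of 56980 listed genes were higher and 1.44% lower. Only 32252 of the listed genes had any count after rounding, while each member had at least 10, so these shares are not a like background. The spread within groups was wide for these genes. The median within-group SD of log2 CPM was 0.816 for the members tested and 0.212 for all genes tested. In 25 of the 59 (42.4%) that SD was at least 1, against 1.90% of all genes tested.

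Foxj1 (ENSMUSG00000034227, chr11:116330704-116335399 in GRCm38, minus strand), the master regulator of motile ciliogenesis, measured 2.13, 0.263 and 34.2 CPM in the controls and 15.8, 1.377 and 0.313 CPM with FNZ. Each group thus held 1 library far above its other libraries, and the groups overlapped. The log2 fold change of -1.07 ± 1.90 (SE) did not pass (edgeR adjusted p = 0.768). Without control replicate 4 the log2 fold change turned to 2.26 (edgeR adjusted p = 0.543), and without FNZ replicate 2 it was -3.82 (edgeR adjusted p = 0.503). Ccno, which encodes cyclin O, followed another order: 28.4, 43.0 and 28.9 CPM in the controls and 40.1, 25.5 and 54.5 CPM with FNZ. It was highest in FNZ replicate 5 and in control replicate 3, and its log2 fold change of 0.26 ± 0.29 (SE) had an edgeR adjusted p of 0.624. Ccno is also known from oocytes. The summed level of 9 oocyte markers, among them Gdf9 and Zp2, was 448, 624 and 391 CPM in the controls and 537, 329 and 744 CPM with FNZ. FNZ replicate 5, control replicate 3 and FNZ replicate 2 were in that order the 3 highest for Ccno and for the oocyte sum. The part of oocytes in the Ccno values was not tested.

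Ovgp1 (ENSMUSG00000074340, chr3:105973711-105987423 in GRCm38, plus strand) spanned the widest range of CPM of any member. It measured 6.81, 2.19 and 555 CPM in the controls and 13.4, 5.02 and 2.66 CPM with FNZ, from 12427 counts in control replicate 4 and 49.9 to 255 counts in the other 5 libraries. Control replicate 4 held nearly all of the signal, and the other 2 controls lay within the FNZ range or just below it. The log2 fold change of -4.75 ± 2.24 (SE) did not pass (edgeR adjusted p = 0.274), and it became 0.63 without control replicate 4 (edgeR adjusted p = 0.700). Of its 25-base words, 30.6% occur in another gene, mostly the overlapping Gm42890, so its counts are uncertain to that extent. On the length-scaled TPM scale Ovgp1 reached 344 in control replicate 4 and at most 6.60 in the other libraries, while Foxj1 reached 20.9 there and 7.29 in FNZ replicate 2. The ratio of Ovgp1 to Foxj1 CPM was 3.20, 8.33 and 16.2 in the controls and 0.847, 3.65 and 8.50 with FNZ. FNZ replicate 2 therefore had the second highest Foxj1 level and the lowest Ovgp1 level relative to Foxj1.

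**Figure D2:**
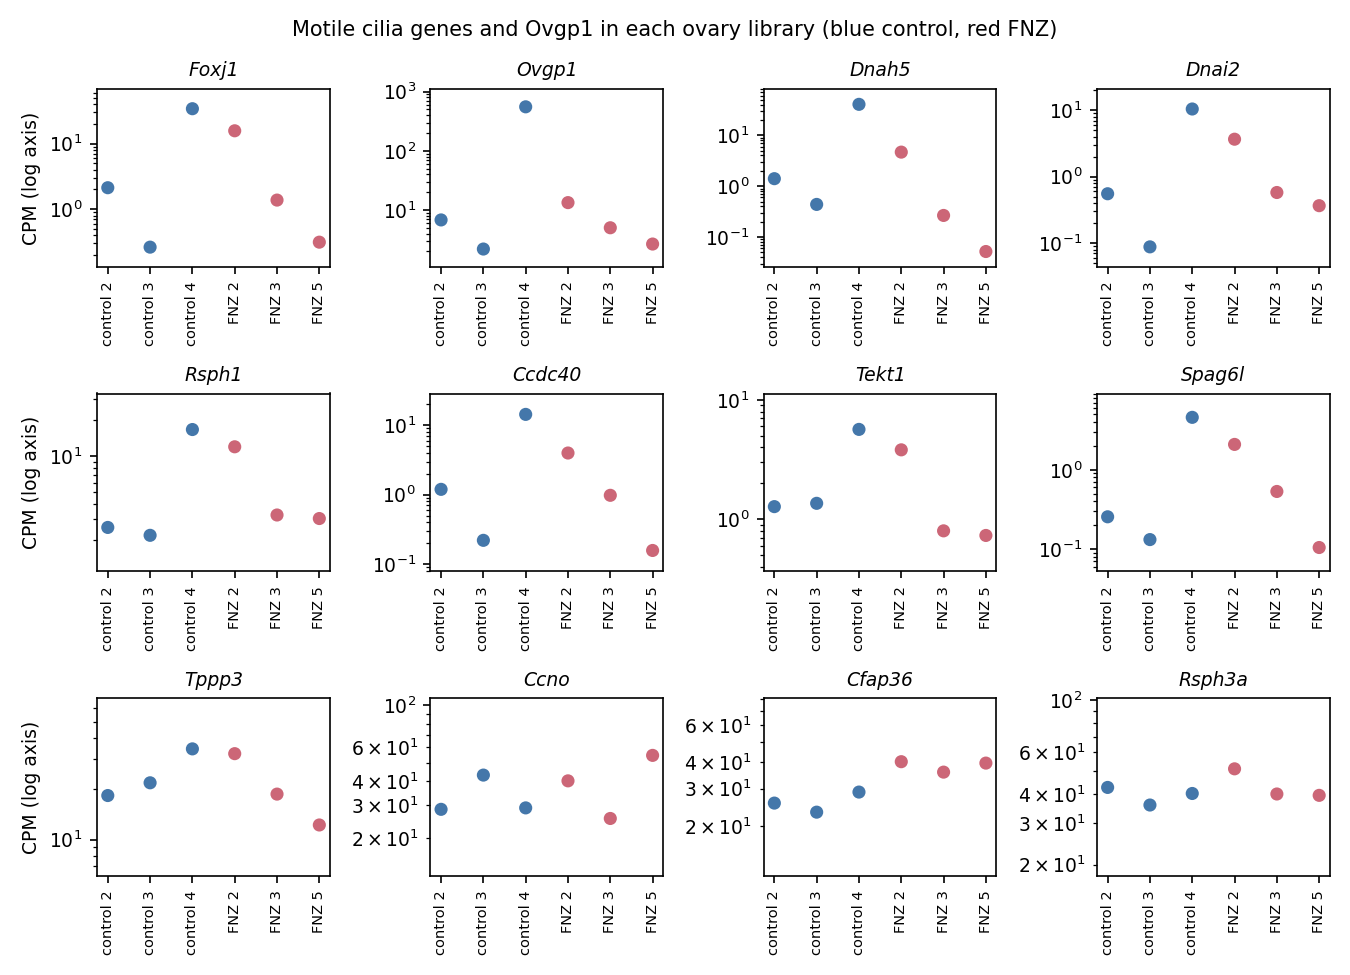
Each panel shows 1 gene in the 6 libraries on a log axis of CPM, controls in blue and FNZ in red. Foxj1, Ovgp1, Dnah5, Dnai2, Rsph1, Ccdc40, Tekt1 and Spag6l peak in control 4 with FNZ 2 second, while Ccno, Cfap36 and Rsph3a do not.

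The dynein heavy chains, the motors of the arms, summed with Dnah2os to 62.1, 61.1 and 202 CPM in the controls and 114, 69.9 and 83.9 CPM with FNZ. Control replicate 4 was highest for 11 of the 16 genes, and 10 of them had FNZ replicate 2 second. Dnah5, a heavy chain of the outer arm chosen for description after its values were seen, had the most negative fold change among the heavy chains. It measured 1.40, 0.439 and 40.4 CPM in the controls and 4.66, 0.267 and 0.0522 CPM with FNZ, and its log2 fold change of -3.09 ± 2.06 (SE) had an edgeR adjusted p of 0.410. Dnah11, another outer arm heavy chain, had the smallest p among heavy chains with a negative change. It measured 2.47, 1.75 and 12.2 CPM in the controls and 3.40, 1.16 and 1.52 CPM with FNZ (log2 fold change -1.44, edgeR adjusted p = 0.333), and the ranges overlapped.

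Dnah8 and Dnah2 departed from that order. Dnah8, an outer arm heavy chain best known from sperm flagella, was the heavy chain with the highest mean CPM and measured 18.8, 14.3 and 14.6 CPM in the controls and 29.2, 14.7 and 25.2 CPM with FNZ. FNZ replicates 2 and 5 stood above the controls and FNZ replicate 3 among them (log2 fold change 0.53, edgeR adjusted p = 0.258). Dnah2, an inner arm heavy chain, measured 7.96, 9.82 and 18.9 CPM in the controls and 19.1, 21.6 and 17.6 CPM with FNZ. Control replicate 4 lay within the FNZ range, and controls 2 and 3 lay well below it (log2 fold change 0.67, edgeR adjusted p = 0.250). Dnah2os, antisense to Dnah2, measured 0.553, 0.614 and 0.982 CPM in the controls and 1.52, 1.64 and 1.05 CPM with FNZ. All 3 FNZ libraries stood above the controls, the highest control and the lowest FNZ library nearly touching (log2 fold change 0.97, edgeR adjusted p = 0.192). No source used here says whether counting used the strand, and Dnah2 and Dnah2os share exon sequence on opposite strands, so their reads may not be separated. Dnah7b, an inner arm heavy chain, measured 7.53, 8.51 and 13.1 CPM in the controls and 10.9, 8.79 and 8.46 CPM with FNZ. It kept the order, control replicate 4 and then FNZ replicate 2, over a narrow range (log2 fold change -0.05, edgeR adjusted p = 0.918). It shares 44.3% of its 25-base words with other genes, mostly its copies Dnah7a and Dnah7c, so these counts may be split among them.

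Of the intermediate chains, 3 of 4 had the same 2 highest libraries as Foxj1. Dnai2, of the outer arm, measured 0.553, 0.0877 and 10.4 CPM in the controls and 3.66, 0.577 and 0.366 CPM with FNZ. Control replicate 4 was highest, FNZ replicate 2 second, and the rest were under 1 CPM (log2 fold change -1.27, edgeR adjusted p = 0.673). Dnai3, of the inner arm, was not tested because its counts sat mostly in 2 libraries, with 97 of its counts in control replicate 4, 32 in FNZ replicate 2 and at most 8 in any other library. Dnai4 was an exception, at 3.40, 3.73 and 8.21 CPM in the controls and 4.97, 5.33 and 4.02 CPM with FNZ. Control replicate 4 was again highest and the FNZ libraries lay between the controls (log2 fold change -0.10, edgeR adjusted p = 0.894).

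Among the radial spoke genes, Rsph1, a spoke head protein, measured 2.55, 2.19 and 16.8 CPM in the controls and 12.0, 3.24 and 3.03 CPM with FNZ. The 2 high libraries were again control replicate 4 and FNZ replicate 2 (log2 fold change -0.23, edgeR adjusted p = 0.904). Rsph3a was nearly level, at 35.9 to 42.6 CPM in controls and 39.4 to 51.1 CPM with FNZ. Rsph3b was highest in control replicate 2, at 56.7 CPM, against 13.6 and 32.8 CPM in the other controls and 24.5, 20.03 and 15.6 CPM with FNZ (log2 fold change -0.78, edgeR adjusted p = 0.382). Rsph3a and Rsph3b are near copies, sharing 61.5% and 71.0% of their 25-base words with other genes, so reads may be divided between them.

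The 5 other axonemal genes all had control replicate 4 highest and FNZ replicate 2 second. Ccdc40 and Ccdc39 encode the ruler that sets the repeat of the axoneme. Ccdc40 measured 1.19, 0.219 and 14.3 CPM in the controls and 3.98, 0.977 and 0.157 CPM with FNZ (log2 fold change -1.62, edgeR adjusted p = 0.577). Ccdc39 varied less, at 3.02, 3.03 and 9.64 CPM in the controls and 8.11, 3.91 and 6.06 CPM with FNZ (log2 fold change 0.20, edgeR adjusted p = 0.839). Tekt1, a tektin filament protein inside the doublet microtubules, whose promoter with 2 X-box arms is printed above, measured 1.28, 1.36 and 5.67 CPM in the controls and 3.82, 0.799 and 0.731 CPM with FNZ. Spag6l, a central pair protein, measured 0.255, 0.132 and 4.60 CPM in the controls and 2.09, 0.533 and 0.104 CPM with FNZ. Tppp3, a tubulin-binding protein that marks ciliated cells of the oviduct, was present in every library, at 18.3, 21.7 and 34.5 CPM in the controls and 32.3, 18.6 and 12.2 CPM with FNZ. Its levels in control replicate 3 and FNZ replicate 5 stood beside Foxj1 levels of only 0.263 and 0.313 CPM there. The edgeR adjusted p-values were 0.679 for Tekt1, 0.750 for Spag6l and 0.743 for Tppp3, and the groups overlapped for each.

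Control replicate 4 was highest for 30 of the 37 Cfap genes, and 26 had it and FNZ replicate 2 as their 2 highest libraries. The Cfap genes named by abundance or by smallest p were not among the 26. Cfap20, a doublet microtubule protein also found in primary cilia, had a mean TPM of 57.8, next to that of Ovgp1 (60.5), and barely varied between libraries. It measured 46.0, 43.0 and 43.7 CPM in the controls and 54.5, 46.6 and 57.5 CPM with FNZ, so that the groups did not overlap, and its log2 fold change of 0.26 ± 0.11 (SE) had an edgeR adjusted p of 0.209. On the TPM scale it was -0.03, where the median of all genes shifted to -0.18. With a correction for gene length the log2 fold change of Cfap20 was 0.08 (edgeR adjusted p = 0.742), against a median of 0.03 over all genes. Cfap36 gave the smallest p of all members, at 25.7, 23.2 and 28.9 CPM in the controls and 40.3, 35.9 and 39.6 CPM with FNZ. Every FNZ library lay above every control. The log2 fold change of 0.57 ± 0.12 (SE) gave an edgeR adjusted p of 0.131, a DESeq2 adjusted p of 0.00952 and, in the authors' deposited table, an adjusted p of 0.00941. Cfap418, linked in people to the photoreceptor cilium, was the single member whose groups did not overlap in the lower direction, at 38.9, 40.8 and 34.2 CPM in the controls and 30.3, 32.7 and 31.0 CPM with FNZ (log2 fold change -0.28, edgeR adjusted p = 0.188). Cfap97 measured 39.8 to 47.2 CPM in controls and 32.5 to 42.5 CPM with FNZ (edgeR adjusted p = 0.352). In all, 5 of the 59 members were higher in every FNZ library than in every control, against 15.8% of all genes tested, and 1 was lower, against 13.8%. The 5 were Cfap20, Cfap36, Cfap298, Cfap410 and Dnah2os, of which Cfap298 and Cfap410 are named because of this count. With 3 libraries a group, an exact two-sided permutation test of a single gene cannot fall below p = 0.1.

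The expression filter, which asks for a minimum level of counts in at least 3 libraries, left 13 members untested: 10 Cfap genes, Dnai1, Dnai3 and Rsph14. Their counts summed to 54, 18 and 887 in the controls and to 366, 43 and 16 with FNZ. All 13 were highest in control replicate 4, and 12 of them had FNZ replicate 2 second. The filter leaves out genes that reach its minimum level in fewer than 3 libraries, even where they have some counts in all 6. Some of these reached the 10 counts only through control replicate 4, so this order partly follows from how the set was made. Cfap65, known for its part in the sperm flagellum and named after its values were seen, held 384 of these counts in control replicate 4 and 164 in FNZ replicate 2, and 1 to 10 in each of the other libraries. In control replicate 4 and FNZ replicate 2 no member was at 0, while 8 of the 72 were at 0 in FNZ replicate 5 and 5 in control replicate 3.

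The direction of the members' median log2 fold change rested on control replicate 4. The median of -0.29 became 0.69 without that library and -0.82 without FNZ replicate 2. It was -0.66 without control replicate 2 and -0.77 without control replicate 3, each over 69 tested members. The medians before them were over 59, so these 2 also differ in which members passed the filter. Without both control replicate 4 and FNZ replicate 2, a setting added after the values were seen, the median over 53 tested members was 0.16, against 0.02 over all genes, with 33 positive and 20 negative. The smallest edgeR adjusted p of a member was then 0.530, and 0 of the members and 0% of 17757 genes were called. Leaving out FNZ replicate 3 brought calls over the whole table, 7.99% of 18314 genes higher and 9.64% lower. Of the 69 members tested there, 4 were then higher and 0 lower: Cfap36 (edgeR adjusted p = 0.0201), Dnah8 (0.0273), Cfap298 (0.0399) and Cfap20 (0.0411).

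**Figure D3:**
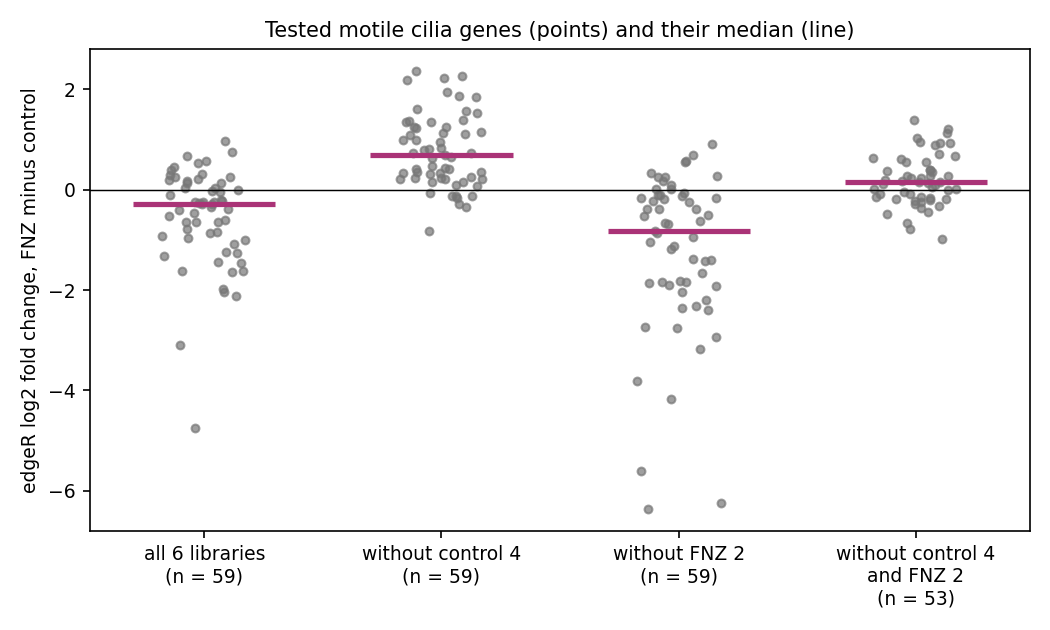
Points are the edgeR log2 fold changes of the tested members, FNZ minus control, and lines their medians, for all 6 libraries and with libraries left out. The median lies at -0.29 with all libraries, 0.69 without control 4, -0.82 without FNZ 2 and 0.16 without both.

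Members differed in how far the 2 high libraries lay apart. For the 50 members other than Ovgp1 with control replicate 4 and FNZ replicate 2 highest, the sum was 80.4, 75.1 and 468 CPM in the controls and 232, 80.2 and 75.5 CPM with FNZ. The other 21 members summed to 383, 346 and 380 CPM in the controls and 421, 358 and 412 CPM with FNZ, with no library standing apart. Since the values chose these sets, the sums only describe them. Over the 50, the ratio of control replicate 4 to FNZ replicate 2 had a median of 1.99 and ran from 0.830 to 8.66, the highest being Dnah5, and for Ovgp1 it was 41.6. Median ratios were 3.60 for 10 heavy chains, 2.85 for 3 intermediate chains, 1.76 for 26 Cfap genes, 1.48 for 5 other axonemal genes and 1.39 for 5 radial spoke genes. Heavy chain genes are long, and the ratio moved with gene length in the whole table. Members under 2000 bases had a median ratio of 1.20 (15 genes), those from 2000 to under 6000 bases 2.20 (23 genes) and those of 6000 bases or more 3.60 (12 genes). All genes tested gave 0.762, 1.08 and 1.40 in the same length classes. Across genes of these 2 libraries, which are not independent replicates, Spearman's rho of ratio and length was 0.498 over the 50 and 0.448 over all genes tested. The part of length in the difference between families was not tested.

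**Figure D4:**
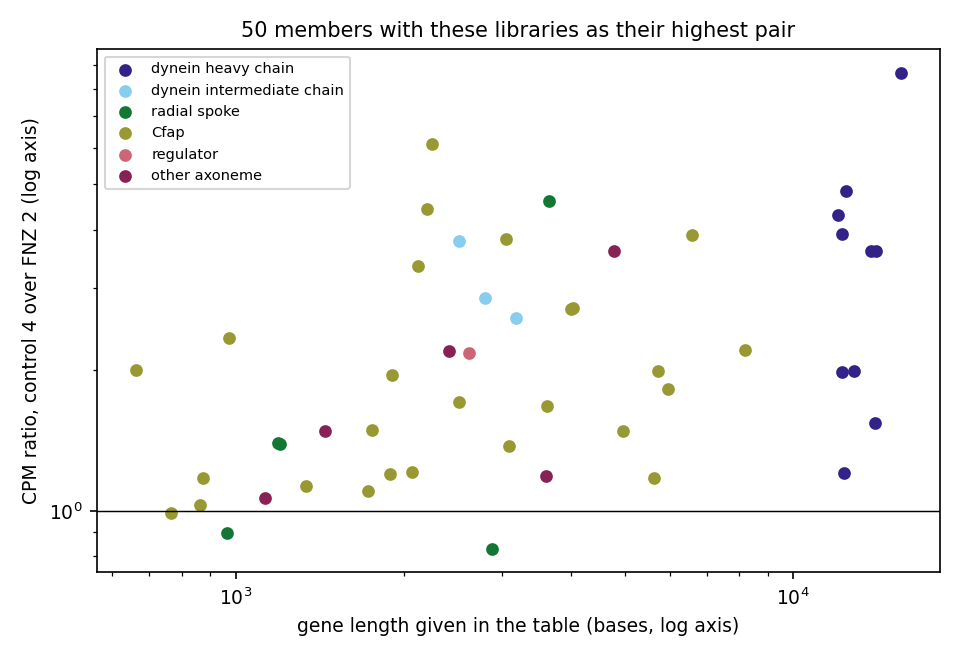
Each point is 1 of the 50 members whose 2 highest libraries were control 4 and FNZ 2, with gene length in bases and the ratio of their CPM, control 4 over FNZ 2, both on log axes. Heavy chains, at the right, have a median ratio of 3.60, and radial spoke genes, in green, a median of 1.39.

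Other genes of the pathway, taken from lists written for this work, gave no call by edgeR in either direction. In the list of the nexin-dynein regulatory complex, the central pair and microtubule inner proteins, 26 of 36 genes with at least 10 counts had control replicate 4 and FNZ replicate 2 as their 2 highest libraries. Counts of this pair, here and in the lists below, also take in any genes the filter left untested. Such genes can reach 10 counts mainly through those 2 libraries, so the share of 6.21% over all genes tested is not a like background. Of its 28 tested genes 10 had positive and 18 negative fold changes, with a median of -0.15. Gas8, a regulatory complex subunit and its most abundant gene, measured 27.4, 28.9 and 30.9 CPM in the controls and 32.1, 25.8 and 29.8 CPM with FNZ. It had the same 2 highest libraries, by a narrow margin. Nme7 did not, at 21.7, 22.2 and 18.8 CPM in the controls and 25.7, 22.3 and 25.8 CPM with FNZ. Spef1, a central pair microtubule bundler, measured 14.04, 13.5 and 18.7 CPM in the controls and 23.9, 19.1 and 20.6 CPM with FNZ (log2 fold change 0.46, edgeR adjusted p = 0.174).

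In the list of other genes enriched in ciliated epithelium the count was 25 of 37, with 9 positive and 13 negative changes among 22 tested and a median of -0.07. Mlf1 had the smallest p there, at 19.7 to 25.7 CPM in controls and 21.9 to 45.1 CPM with FNZ (edgeR adjusted p = 0.182). Dynein light chains and assembly factors gave 12 of 22, with 11 positive and 8 negative changes among 19 tested and a median of 0.07. Their most abundant genes, Ruvbl1 and Ruvbl2, encode ATPases used in all cells. Regulators of the multiciliated program gave 5 of 14, with 3 positive and 7 negative changes among 10 tested and a median of -0.22. E2f4, a cofactor of that program that also acts in the cell cycle, measured 55.1 to 57.7 CPM in controls and 42.5 to 49.7 CPM with FNZ, without overlap (log2 fold change -0.28, edgeR adjusted p = 0.153). Intraflagellar transport and the BBSome, which serve primary cilia too, gave 2 of 43, with 29 positive and 14 negative changes and a median of 0.16. Their summed level was 1104, 1109 and 1156 CPM in the controls and 1230, 1193 and 1179 CPM with FNZ, so every FNZ library lay above every control. Ift43, a subunit of the retrograde transport complex, measured 22.3, 23.1 and 24.4 CPM in the controls and 43.7, 30.5 and 38.0 CPM with FNZ (log2 fold change 0.68, edgeR adjusted p = 0.131).

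The labels name the tissue as ovary, and markers of the oviduct and of other epithelia were read beside the members. The 12 oviduct secretory markers summed to 520, 252 and 873 CPM in the controls and 428, 488 and 267 CPM with FNZ, and control replicate 4 was highest for 10 of the 12. Control replicate 2, not FNZ replicate 2, had the second highest sum, and 3 of the 12 genes had the members' 2 highest libraries. Most of that sum was C3 and Gpx3, which other tissues make too. Pax8, the secretory cell transcription factor, measured 0.681, 0.175 and 5.22 CPM in the controls and 1.47, 2.80 and 0.0522 CPM with FNZ, and was thus highest in control replicate 4 with FNZ replicate 3 second. Slc26a4 was at 0 in 5 libraries and at 0.0893 CPM in control replicate 4. The 13 general epithelial markers summed to 119, 117 and 242 CPM in the controls and 155, 87.3 and 109 CPM with FNZ. The 2 highest libraries were the same as for the members, as they were for 9 of the 13 genes. Epcam, an epithelial adhesion protein, measured 4.72, 3.16 and 15.6 CPM in the controls and 11.04, 6.00 and 3.03 CPM with FNZ. Krt8 and Esrp1 were the most abundant of the list. Krt8 had the same 2 highest libraries over a range of 23.1 to 45.4 CPM. Esrp1 was highest in control replicate 3, at 29.2 CPM, against 21.3 CPM in control replicate 4. Krt19, with the smallest p, was highest in control replicate 4, at 40.0 CPM, with control replicate 2 second, at 20.7 CPM. The 9 markers of oviduct and uterus summed to 34.9, 28.1 and 66.0 CPM in the controls and 38.4, 23.7 and 30.4 CPM with FNZ. Lcn12 of this list was at 0 in every library, and Ltf, a secreted protein of the tract, measured 1.45, 0.526 and 22.2 CPM in the controls and 4.13, 1.29 and 0 CPM with FNZ. Emx2, the most abundant of this list, ranged from 18.1 to 27.2 CPM and was highest in FNZ replicate 2. Prom1, on this and the secretory list, was highest in control replicate 4, at 13.5 CPM, with FNZ replicate 5 second, at 7.10 CPM. Markers of the ovarian surface epithelium, 10 genes, summed to 270, 189 and 316 CPM in the controls and 224, 235 and 208 CPM with FNZ. Control replicates 4 and 2 had the highest sums. Control replicate 4 was the highest library for 8 of the 10 genes, and 2 of the 10 had the members' 2 highest libraries.

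By their sums, markers of other tissues took other orders. The 7 adipocyte markers, among them Cfd and Fabp4, summed to 411, 85.3 and 797 CPM in the controls and 244, 822 and 78.1 CPM with FNZ, so control replicate 4 and FNZ replicate 3 were high. Gene by gene, control replicate 4 was the highest library for 5 of the 7 and FNZ replicate 3 for 2. The 6 smooth muscle markers, led by Acta2 and Myh11, summed to 2111, 2159 and 2377 CPM in the controls and 2997, 4605 and 1985 CPM with FNZ. The 8 granulosa cell markers, led by Inha, lay between 4392 and 4572 CPM in controls and between 5407 and 5709 CPM with FNZ, without overlap. Theca and luteal markers, 7 genes led by Hsd3b1, summed to 4098, 3574 and 3746 CPM in the controls and 4817, 5907 and 4191 CPM with FNZ. Star, the cholesterol carrier of steroid making, was read after its values were seen. It was at 588 CPM in control replicate 4 and between 18.7 and 94.3 CPM elsewhere. Star was the 1 gene of the 7 theca and luteal markers that was highest in control replicate 4, while 4 of the 7 were highest in FNZ replicate 3. The part of other tissue in the members' values was not tested.

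**Figure D5:**
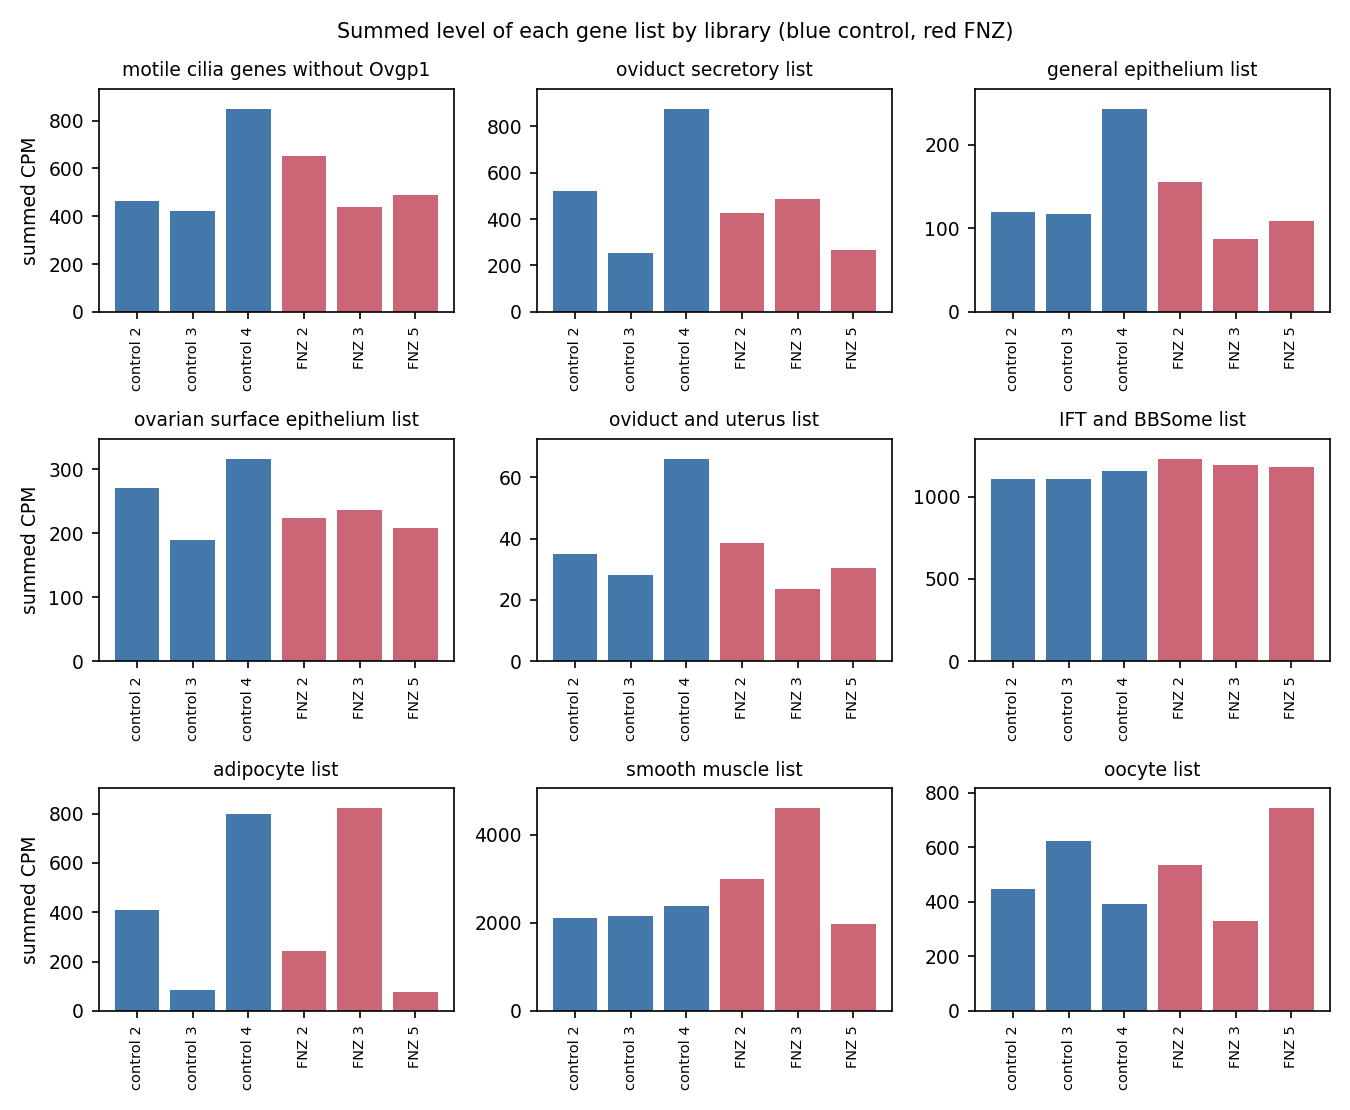
Bars give the summed CPM of each gene list in each library, from 0, controls in blue and FNZ in red. The motile cilia genes (848 CPM in control 4, 653 CPM in FNZ 2), the general epithelium list and the oviduct and uterus list share their 2 highest libraries. The oviduct secretory and ovarian surface lists are highest in control 4 and control 2. The adipocyte list is highest in FNZ 3 and control 4, and the smooth muscle and oocyte lists peak in FNZ 3 and FNZ 5.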

How the data were processed

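Poly(A) RNA of mouse ovaries was sequenced as paired reads in 6 libraries, 3 control and 3 FNZ, grouped by the sample titles, whose replicate numbers served only as names. Per the submitters' processing notes, bcl2fastq 2.20 and DESeq2 1.38.3 were used with the genome build GRCm39. An aligner, a counting program and a strand setting were not given in the sources used here. The authors deposited 1 table, which per the file headers holds expected counts and TPM per library, a gene length, and, for FNZ against control, a fold ratio with its log2 and the p-value before and after adjustment. Between 12.0% and 14.8% of the deposited expected counts in a library were not whole, and TPM summed to about 1000000 in each. All per-library columns were mapped (0 left out). The design assumed this kind of count.

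Expected counts were rounded to whole numbers. The fit used edgeR 4.0.16 under R 4.3.3 (TMM, filterByExpr, glmQLFit with robust = TRUE, two-sided quasi-likelihood test, limma 3.58.1). Benjamini-Hochberg adjustment ran over all 17735 genes tested, and genes were called at an adjusted p under 0.05. The error given is the SD over 3 libraries for a level and the SE from the model for a fold change on the log2 scale. The steps were tested on simulated data with the same low dispersion for every gene. The median edgeR dispersion was 0.343 for the members tested and 0.0392 for all genes tested. That test therefore does not show how often changes in the members would be found. No counting interval is given, since PCR copies of a molecule are counted as reads.

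The members and lists were chosen with earlier results of these data known. Named are the genes singled out in the selection rule and, in each family, the 3 with the highest mean CPM and the smallest edgeR p in each direction. For each other list the rule takes the 2 most abundant genes and the smallest p, but not all of these are named here. Others are said to be chosen after their values were seen. This also holds for Pax8, Slc26a4, Epcam, Lcn12 and Ltf. Alternatives were RLE and upper quartile scaling, DESeq2 1.42.0, limma voom, all genes unfiltered, only genes with 1 CPM in at least 3 libraries, robust = FALSE, limma on log2(TPM + 1) for genes with a mean TPM of at least 0.5, a loess length correction (span 0.3), a replicate block, other thresholds and libraries left out. GENCODE M21 (GRCm38) held 71 of the 72 members. Exons overlapped those of another gene on the same strand for 4 members and on the opposite strand for 29. At least 20% of 25-base words were shared with another gene for 6. Coordinates are those of GRCm38, not of the authors' build.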

Additional observations from a re-analysis of the deposited data

How the results depend on the processing

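Over 371 values of 22 named and tested members under the alternatives, 325 kept their direction and their side of the threshold, 42 changed sign over 13 members, and 4 newly passed in the same direction. Foxj1 with the replicate block both changed sign and passed. The median log2 fold change of the members stayed between -0.45 and -0.22 under other scalings, filters, tests, TPM and the length correction. The members tested there numbered 47 to 72. With TPM the median of all genes shifted to -0.18, and sign changes there are to be read against it. With libraries left out it ran from -0.82 to 0.69.

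Calls over all genes were 653 higher and 809 lower by DESeq2, 99 and 84 with no filter on low counts, 1 and 1 by limma voom, 1 and 7 by limma on log2 TPM, and 1 and 1 with the length correction, against 0 and 0. With libraries left out they ran from 0 to 1464 higher and from 0 to 1766 lower, the highest without FNZ replicate 3, and 1 gene was called lower without control replicate 3 and 1 without FNZ replicate 5. Among the members 1 was called higher by DESeq2, and 0 to 4 with libraries left out. DESeq2 gave no adjusted p for 23 members. The cause of these differences was not tested.

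The log2 fold change changed sign with TPM for Ccno (-0.02), Dnah7b (0.15) and Cfap20 (-0.03), with the length correction for Dnah7b (0.34) and Dnai4 (0.04), and by limma voom for Dnai4 (0.02), Dnai2 (0.13) and Rsph1 (0.10). Without both control replicate 4 and FNZ replicate 2, chosen after seeing the data, it did so for Dnah7b (0.11), Dnai4 (0.39), Dnai2 (0.55) and Rsph1 (0.40). With single libraries left out the ranges that crossed 0 were -5.60 to 0.63 for Ovgp1, -3.82 to 2.26 for Foxj1, -1.84 to 0.43 for Tekt1, -3.17 to 1.25 for Ccdc40, -0.03 to 0.50 for Ccno, -0.67 to 0.07 for Tppp3, -2.32 to 2.19 for Spag6l, -0.07 to 0.99 for Ccdc39, -0.21 to 0.22 for Dnah7b, -0.32 to 0.42 for Dnai4, -2.94 to 2.22 for Dnai2 and -1.19 to 1.35 for Rsph1.

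Groups share replicate numbers 2 and 3 but not 4 and 5. Deviations from the group mean gave r = -0.0846 for the replicate 2 libraries and -0.135 for the replicate 3 libraries, across genes. Unlike-numbered libraries gave 0.098 (control 2 and FNZ 3) and -0.212 (control 3 and FNZ 2). With 2 shared numbers and group means that include the unshared libraries, this cannot settle whether the numbers pair the libraries. The replicate block compares replicates 2 and 3 alone and so leaves control replicate 4 and FNZ replicate 5 out of the contrast. Foxj1 was at 34.2 CPM in control replicate 4 and at 0.313 CPM in FNZ replicate 5. With the block, 22 of 17857 genes tested were called higher and 5 lower. Of the 59 members tested 1 was called higher, Foxj1 (edgeR adjusted p = 0.0486), and the members' median was 0.72. That fit rests on 2 libraries per group. With the block the fold change changed sign for Ovgp1 (1.08), Foxj1 (2.69), Tekt1 (0.47), Ccdc40 (1.89), Ccno (-0.13), Tppp3 (0.30), Spag6l (2.59), Dnah7b (0.29), Dnai4 (0.53), Dnai2 (2.69) and Rsph1 (1.42).

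The filter, which needs a minimum level of counts in several libraries, left 13 of the 72 members untested. A p that misses the threshold does not show that a member was unchanged.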
